A study of Homo sapiens with 27 samples.

Results

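Ribosome footprints and mRNA were followed for 8 genes of polyamine metabolism in human IMR90 cells, a line of normal fetal lung fibroblasts. The genes are ODC1, AMD1, SRM, SMS, OAZ1, OAZ2, AZIN1 and SAT1. They were chosen by name, for their place in the pathway and the known translational control of several of them, with earlier results of these data known. They are 8 of the 60534 gene IDs shared by all libraries, and all 8 passed the filter on low counts in both kinds of library. RNA-seq gives the mRNA of a gene, and Ribo-seq counts the mRNA fragments that ribosomes shield from RNase. Their ratio, footprints over mRNA, is the quantity compared here between states of the cells.

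Cells were cycling (2 RNA-seq and 3 Ribo-seq libraries), quiescent by contact inhibition (3 and 3), senescent by ionizing radiation at 15 Gy with harvest after 10 days (3 and 3), senescent by etoposide at 50 µM in 3 treatments over 10 days (3 and 3), or cycling and exposed to 25 nM thapsigargin for 3 h (2 and 2). Etoposide blocks topoisomerase II and breaks DNA, and thapsigargin drains calcium from the endoplasmic reticulum. The genotype is labelled WT except in the thapsigargin libraries, which carry no genotype label. A label of the thapsigargin libraries calls all of them protected fragments, so their assay was read from the titles, and the times of RNase treatment given for the series and for its samples differ. All cells had high-glucose DMEM with serum and non-essential amino acids, and antibiotics are named in the medium of all states but thapsigargin. Lysates held cycloheximide, which stalls ribosomes during elongation. Nothing in the labels says that replicates were separate cultures, so the p-values measure the spread between these libraries, which may be technical.

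Putrescine, spermidine and spermine are small cations that bind nucleic acids and ribosomes, and proliferating cells need them. ODC1 makes putrescine, AMD1 supplies the aminopropyl donor, SRM and SMS use it to build spermidine and spermine, and SAT1 acetylates both for export or breakdown. Antizymes (OAZ1, OAZ2) bind ODC1 and send it to the proteasome, and antizyme inhibitor (AZIN1) releases ODC1 by binding antizyme in its place. The cell senses polyamines largely in translation: antizyme needs a shift of the reading frame that polyamines favour, AMD1 and AZIN1 carry short upstream frames that restrain the main one, and SAT1 mRNA is poorly translated when polyamines are low.

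In units of 1e6 gene counts, RNA-seq libraries held from 20.6 to 57.1 and Ribo-seq libraries from 1.94 to 20.0. The thapsigargin Ribo-seq libraries were at the bottom of that range. The thapsigargin libraries also stood apart in how their reads mapped: 1.35% and 1.40% of RNA-seq reads were unmapped against 27.9% to 40.6% in the other states, and 65.2% and 66.9% of Ribo-seq reads mapped to several places against 19.8% to 31.9%. This set of libraries and the treatment cannot be told apart. All 8 fibroblast markers were above 1 CPM (counts scaled to a library total of 1e6 after TMM normalization), with a summed level from 8180 to 13200 CPM per RNA-seq library. No immune marker of 4 reached 1 CPM, and 1 of 4 endothelial (VWF, at most 2.33 CPM) and 1 of 4 epithelial markers (KRT19, at most 88.7 CPM) did. DDIT3, a stress gene used to check the labels, rose under thapsigargin by 3.44 ± 0.16 on the log2 scale in mRNA (SE; edgeR adjusted p = 6.24e-08), and also, by less, in quiescent (0.77 ± 0.14), irradiated (1.23 ± 0.14) and etoposide-treated cells (0.81 ± 0.14; adjusted p = 0.00261, 1.84e-05 and 0.000484). MKI67, a proliferation marker, was lower in mRNA in irradiated cells (log2 -3.41 ± 0.46, edgeR adjusted p = 7.63e-05) and in etoposide-treated cells (-4.60 ± 0.48, adjusted p = 8.10e-06). In quiescent cells its mRNA difference was not called (-0.94 ± 0.43, adjusted p = 0.170), while its footprints were called lower (-1.13 ± 0.21, adjusted p = 0.00165).

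In the quiescent and senescent states, grouped as arrested after their labels, SAT1 mRNA and footprints rose together and antizyme footprints rose in both senescent states, while ODC1 and AMD1 fell in part of the comparisons. Under thapsigargin the footprints of ODC1, SRM and OAZ2 fell and those of AZIN1, OAZ1 and SAT1 rose, with no mRNA of the 8 called. The footprint-to-mRNA ratio was called for ODC1 and SRM in that comparison, both lower, and for none of the 8 in the others. In these bulk libraries, fewer cells that express a gene and less of its RNA per cell cannot be told apart. All levels and ratios were scaled to the other genes (TMM), so a rise or fall is relative to them. A change shared by most genes, in mRNA or in footprints, was not measured. Each call is edgeR's quasi-likelihood test at a Benjamini-Hochberg adjusted p under 0.05 over all genes tested. Where the senescent states are set against quiescence, the test is of their mean, with equal weight. Neither senescent state was tested alone against quiescence.

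**Figure D1:**
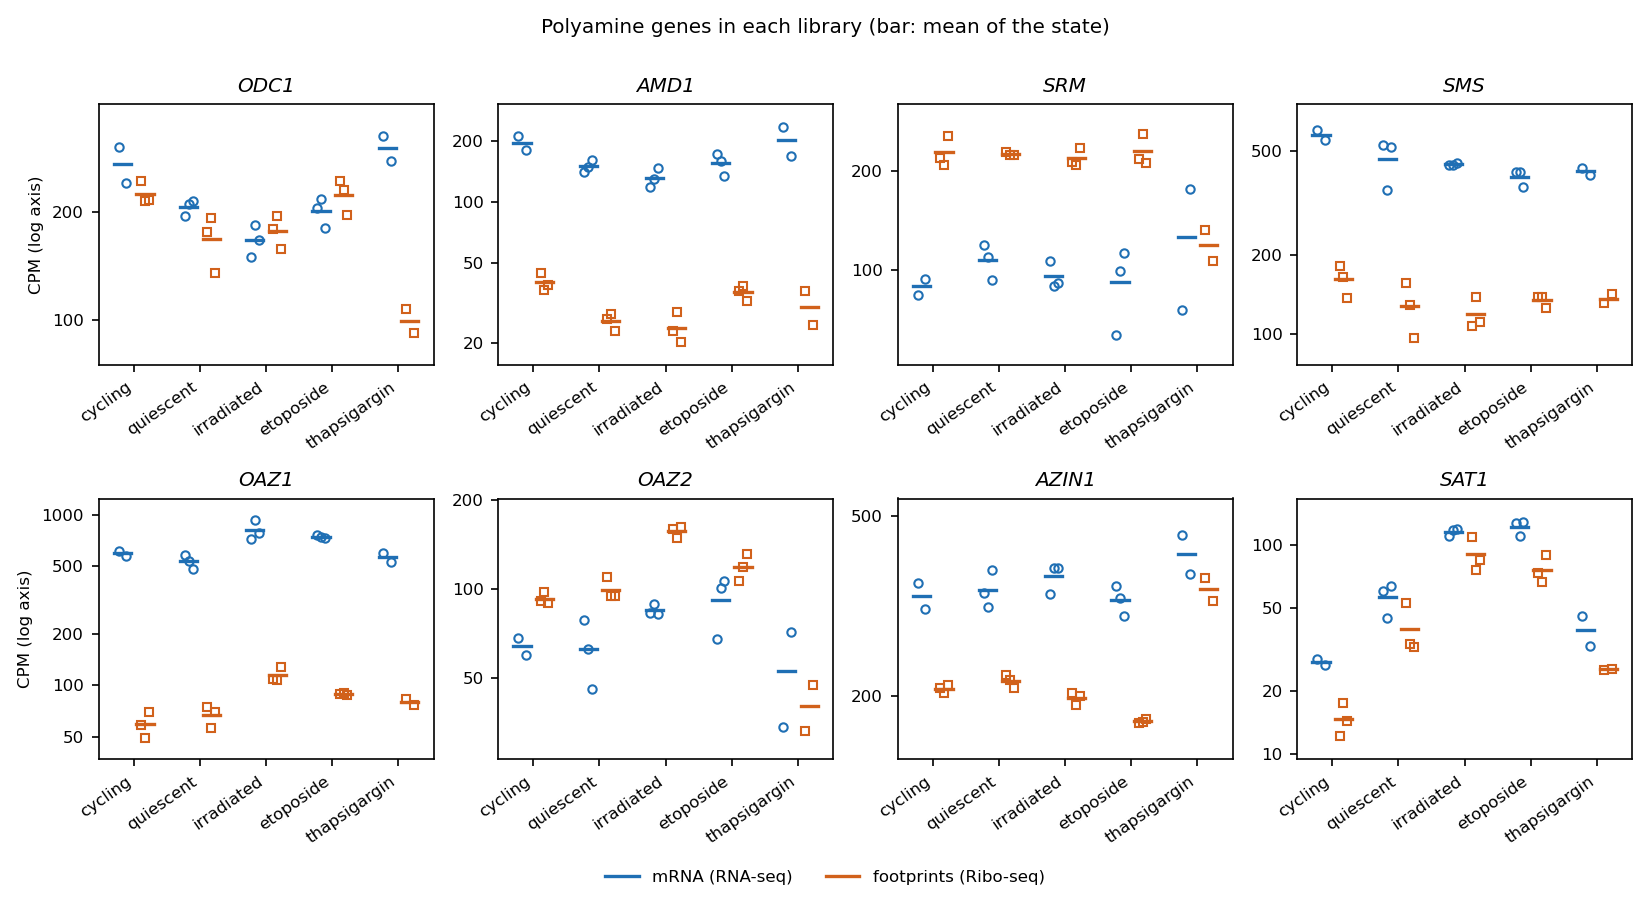
Level of each polyamine gene in every library, as CPM on a log axis, by state. Circles are RNA-seq and squares Ribo-seq libraries, and bars are means. SAT1 is higher in all arrested states than in cycling cells in both assays, and ODC1 footprints under thapsigargin (91.7 and 107 CPM) lie below those of all other states while its mRNA does not.

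ODC1, ornithine decarboxylase, commits ornithine to polyamine synthesis (chromosome 2, 10439968 to 10448327 in GRCh38.p14). Its mRNA stood at 304 and 241 CPM in the cycling libraries, at 195, 212 and 215 CPM in the quiescent, at 149.6, 184 and 168 CPM in the irradiated, at 206, 217 and 181 CPM in the etoposide and at 328 and 278 CPM in the thapsigargin libraries. Cycling and thapsigargin mRNA overlapped, and both lay above the 3 arrested states, which overlapped in order of their means. The footprints were at 245, 215 and 217 CPM in cycling, at 176, 193 and 135 CPM in quiescent, at 179, 195 and 158 CPM in irradiated, and at 245, 231 and 197 CPM in etoposide-treated cells. Thapsigargin left 107 and 91.7 CPM, the lowest of all 14 Ribo-seq libraries.

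Under thapsigargin ODC1 footprints fell by 1.18 ± 0.17 on the log2 scale (edgeR adjusted p = 8.71e-05). The mRNA difference was 0.15 ± 0.15 (adjusted p = 0.494), and without cycling RNA-seq replicate 2 it was -0.0065. The ratio of footprints to mRNA went from 0.81 in cycling cells to 0.33, a fall by 1.30 ± 0.23 (adjusted p = 0.000462). That change sat at the 13.2 percentile of the 11714 genes tested, whose median was -0.14. The call held under every alternative run, with adjusted p up to 0.00846.

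In the arrested states the ODC1 mRNA decrease was called after irradiation (-0.71 ± 0.13, adjusted p = 0.00120) and after etoposide (-0.44 ± 0.14, adjusted p = 0.0230), and the footprint decrease in quiescence (-0.42 ± 0.14, adjusted p = 0.0367). The mRNA difference in quiescence was -0.40 ± 0.14 (adjusted p = 0.0656), which was called by DESeq2's test (0.0435). Footprints differed by -0.35 ± 0.14 after irradiation (adjusted p = 0.0589), which was called without the filter on low counts (0.0409), over all genes of the list (0.0479) and in a fit of these states alone (0.0114). Against a ratio of 0.81 in cycling cells, quiescent cells had 0.85, irradiated cells 1.13 and etoposide-treated cells 1.06, with no difference called. The etoposide mRNA call was lost without cycling replicate 1 (adjusted p = 0.286) or etoposide replicate 3 (0.0853). The quiescent footprint call was lost without any 1 of the 3 cycling libraries (0.136, 0.0598 and 0.0704 for replicates 1, 2 and 3) or without quiescent replicate 3 (0.111), and in a fit of these states alone (0.0804).

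AMD1, adenosylmethionine decarboxylase, makes the donor of aminopropyl groups. Its mRNA carries a short upstream frame that is known to stall ribosomes when polyamines are high. The frame lies at chr6:110874796-110874816 (GRCh38.p14, RefSeq, plus strand), with its ATG 11 bases after an annotated start, and it has 6 codons before the stop. It is shown because gene-level counts hold footprints in it together with those of the main frame. Capitals mark the start and stop codons.
AMD1 upstream frame: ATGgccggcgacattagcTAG
A complete frame, an ATG with a stop codon in phase, is present within the first 50 transcribed bases of 10.2% of 35116 RefSeq start windows. Windows were matched for 7 of the 8 polyamine genes, and AMD1 was the one of them with such a frame.

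AMD1 footprints fell in quiescent and irradiated cells. They were at 44.6, 36.8 and 38.6 CPM in cycling, at 26.3, 27.8 and 22.9 CPM in quiescent, at 23.0, 28.4 and 20.3 CPM in irradiated and at 36.2, 38.4 and 32.4 CPM in etoposide-treated cells. Thapsigargin gave 36.1 and 24.7 CPM. Cycling libraries lay above every quiescent and irradiated one, and overlapped with etoposide. The log2 change was -0.64 ± 0.16 in quiescence (edgeR adjusted p = 0.0103) and -0.75 ± 0.17 after irradiation (adjusted p = 0.00305). Irradiated cells were also lower than etoposide-treated ones, by -0.59 ± 0.18 in a direct test (adjusted p = 0.0264).

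AMD1 mRNA was at 213 and 180 CPM in cycling cells and at 119, 130 and 147 CPM in irradiated cells, with no overlap, a change of -0.57 ± 0.16 (edgeR adjusted p = 0.0116). In quiescent cells it ranged from 142 to 162 CPM, in etoposide-treated cells from 135 to 173 CPM, and under thapsigargin it was 235 and 169 CPM. The footprint-to-mRNA ratio stayed between 0.15 (thapsigargin) and 0.22 (etoposide), against 0.20 in cycling cells, with no difference called. Under thapsigargin the ratio differed by -0.41 ± 0.27 (adjusted p = 0.294), on 71 and 50 footprints per library. Without cycling replicate 1 the quiescent footprint call (adjusted p = 0.0535) and the irradiated mRNA call (0.138) were lost, the latter also without irradiated replicate 1 (0.0502). The difference between irradiated and etoposide-treated cells was lost without irradiated replicate 1 (0.103) or 3 (0.145), or etoposide replicate 1 (0.0957) or 2 (0.122).

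SRM, spermidine synthase (chromosome 1, 11054589 to 11060018), kept a steady footprint level in every state but thapsigargin. Footprints were at 221, 210 and 258 CPM in cycling cells and between 209.7 and 261 CPM in all 9 libraries of the arrested states. Thapsigargin left 132 and 106 CPM, below all of them. The change was -0.94 ± 0.14 on the log2 scale (edgeR adjusted p = 0.000103).

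SRM mRNA was at 83.7 and 93.9 CPM in cycling cells and from 63.0 to 119 CPM in the arrested states. The 2 thapsigargin libraries gave 75.2 and 176 CPM, one below and one above both cycling libraries. The mRNA difference of 0.50 ± 0.32 was not called (edgeR adjusted p = 0.274). Without thapsigargin replicate 1 it was 0.99 (adjusted p = 0.0143), and without replicate 2 it was -0.24.

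The SRM ratio went from 2.53 in cycling cells to 0.95 under thapsigargin, a log2 change of -1.41 ± 0.36 (edgeR adjusted p = 0.00711), at the 12.1 percentile of genes tested. The size of this fall rests on 1 mRNA library: without thapsigargin RNA-seq replicate 2 it was -0.73 (adjusted p = 0.0880). Fitting cycling and thapsigargin libraries alone gave -1.46 (adjusted p = 0.0579). The footprint fall itself was called under every alternative run, with adjusted p up to 0.00558. In the other states the ratio was 2.21 (quiescent), 2.44 (irradiated) and 2.41 (etoposide).

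SMS, spermine synthase (chromosome X, 21940709 to 21994837), had its highest mean in cycling cells in both assays. Its mRNA was at 596 and 548 CPM in cycling, at 524, 353 and 515 CPM in quiescent, at 442, 440 and 446 CPM in irradiated, at 413, 415 and 364 CPM in etoposide and at 429 and 403 CPM in thapsigargin-treated cells. All of these lay below both cycling libraries. In the fit over all states the difference was called only after etoposide (-0.52 ± 0.15, edgeR adjusted p = 0.0145). Under thapsigargin it was -0.46 ± 0.16 (adjusted p = 0.0571). After irradiation it was -0.37 ± 0.15 (0.0694), which was called in a fit of these states alone (-0.39, 0.0016).

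SMS footprints were at 182, 166 and 138 CPM in cycling cells and at 108, 139 and 111 CPM after irradiation, a change of -0.45 ± 0.16 (edgeR adjusted p = 0.0414). Quiescent libraries spread from 96.5 to 157 CPM, etoposide libraries from 126 to 139 CPM, and thapsigargin libraries were at 132 and 142 CPM. The ratio stayed between 0.28 (cycling and irradiated) and 0.33 (thapsigargin). The irradiated footprint call was lost without cycling replicate 1 (adjusted p = 0.153) or 2 (0.0970), or irradiated replicate 1 (0.152) or 3 (0.117). The etoposide mRNA call was lost without cycling replicate 1 (0.114) or etoposide replicate 3 (0.0539).

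OAZ1, an antizyme (chromosome 19, 2269486 to 2273488), gained footprints in both senescent states. They were at 58.7, 49.3 and 69.9 CPM in cycling, at 75.0, 56.4 and 69.6 CPM in quiescent, at 109, 108 and 129 CPM in irradiated and at 89.2, 90.9 and 88.0 CPM in etoposide-treated cells. Thapsigargin gave 83.4 and 76.4 CPM. The order of the means was irradiated, etoposide, thapsigargin, quiescent and cycling, and of these neighbours quiescent and cycling overlapped. The rise was 0.96 ± 0.14 on the log2 scale after irradiation (edgeR adjusted p = 0.000100), 0.59 ± 0.14 after etoposide (adjusted p = 0.00435) and 0.43 ± 0.16 under thapsigargin (adjusted p = 0.0451). The mean of both senescent states was above quiescence by 0.60 ± 0.12 (adjusted p = 0.00243). Irradiated cells were above etoposide-treated ones without overlap, by 0.36 ± 0.14 (0.0838), which was called with DESeq2's size factors (0.0487), DESeq2's test (0.0314), unstranded counts (0.0478) and a fit of these states alone (0.00515).

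OAZ1 mRNA was at 612 and 573 CPM in cycling cells, at 580, 538 and 483 CPM in quiescent, at 716, 932 and 784 CPM in irradiated and at 760, 743 and 728 CPM in etoposide-treated cells. Both senescent states lay above all libraries of the other states, with thapsigargin at 598 and 531 CPM. The mRNA rise was 0.45 ± 0.13 after irradiation (edgeR adjusted p = 0.0145), 0.33 ± 0.13 after etoposide (0.0622, not called here but called by DESeq2 at 0.0300 and in a fit of these states alone at 0.0173) and 0.54 ± 0.10 for the senescent states against quiescence (0.00115). The irradiated mRNA call was lost without cycling replicate 1 (0.0622) or 2 (0.114) or irradiated replicate 2 (0.0574).

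The OAZ1 ratio was 0.098 in cycling cells, 0.13 in quiescent, 0.15 in irradiated, 0.12 in etoposide-treated and 0.14 in thapsigargin-treated cells. The difference from cycling was 0.62 ± 0.19 after irradiation (edgeR adjusted p = 0.408) and 0.53 ± 0.22 under thapsigargin (0.0867). Neither was called in the fit over all states, although under thapsigargin DESeq2 called it (0.60, adjusted p = 0.0453), as did the fit without cycling Ribo-seq replicate 3 (0.0368). The footprint call under thapsigargin was lost without the filter on low counts (0.0970), in a fit of these states alone (0.0894), without cycling replicate 1 (0.0836) or 2 (0.145), and without thapsigargin replicate 1 (0.197) or 2 (0.0694). Counts per gene join footprints before and after the frameshift site, so the share of ribosomes that shift frame was not measured.

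OAZ2, a second antizyme (chromosome 15, 64687574 to 64703281), rose in senescence like OAZ1 in footprints but fell under thapsigargin. Footprints were at 91.4, 97.7 and 89.5 CPM in cycling, at 109.5, 94.6 and 94.6 CPM in quiescent, at 160, 148 and 163 CPM in irradiated and at 107, 118 and 132 CPM in etoposide-treated cells. Thapsigargin left 33.0 and 47.3 CPM, from 65 and 96 footprints, below all other libraries. The change was 0.76 ± 0.12 on the log2 scale after irradiation (edgeR adjusted p = 0.000217), 0.36 ± 0.12 after etoposide (0.0340) and -1.21 ± 0.16 under thapsigargin (4.72e-05). The mean of both senescent states was above quiescence by 0.46 ± 0.11 (0.00552). Irradiated libraries lay above all quiescent ones, while etoposide libraries overlapped with quiescent ones.

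The irradiated and etoposide values of OAZ2 footprints did not overlap and differed by 0.40 ± 0.12 in a direct test (edgeR adjusted p = 0.0296). That difference was lost without irradiated replicate 1 (0.101) or etoposide replicate 1 (0.0642). The etoposide rise was lost without cycling replicate 1 (0.0906), 2 (0.0530) or 3 (0.110), without etoposide replicate 2 (0.0787) or 3 (0.162), and without the filter on low counts (0.0672).

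OAZ2 mRNA varied more between replicates than its footprints: 68.5 and 60.0 CPM in cycling, 78.9, 62.8 and 46.0 CPM in quiescent, 82.9, 89.3 and 82.1 CPM in irradiated, 67.8, 101 and 106 CPM in etoposide and 34.2 and 71.8 CPM in thapsigargin libraries. No mRNA difference was called, the closest being 0.49 ± 0.22 for the mean of both senescent states against quiescence (edgeR adjusted p = 0.101). In fits of the groups compared alone, that difference (0.0459) and the one after irradiation (0.37, 0.00408) were called. The ratio went from 1.42 in cycling cells to 0.76 under thapsigargin, a difference of -0.90 ± 0.37 (adjusted p = 0.0857). Over all alternatives this ratio difference ran from -1.38 (without thapsigargin RNA-seq replicate 1) to -0.32. Without thapsigargin Ribo-seq replicate 2 it was -1.21. Without thapsigargin RNA-seq replicate 2 the mRNA difference was -0.91.

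AZIN1, the antizyme inhibitor, moved opposite to ODC1 under thapsigargin in footprints. They were at 208, 202 and 211 CPM in cycling cells and at 365 and 324 CPM under thapsigargin, the highest of all states and without overlap. The rise was 0.73 ± 0.09 on the log2 scale (edgeR adjusted p = 3.25e-05), called under every alternative run with adjusted p up to 0.00263. Its mRNA was at 355 and 312 CPM in cycling and at 454 and 372 CPM in thapsigargin-treated cells, a difference of 0.31 ± 0.14 (adjusted p = 0.131).

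The AZIN1 ratio went from 0.61 to 0.84 under thapsigargin, a difference of 0.45 ± 0.17 that missed the threshold (edgeR adjusted p = 0.0577). It passed with DESeq2's size factors (0.0282) or DESeq2's own test (0.0101), and without thapsigargin RNA-seq replicate 1 (0.0271) or Ribo-seq replicate 2 (0.0409). Over all alternatives its adjusted p ran from 0.0101 to 0.313.

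In the arrested states AZIN1 varied little. Footprints were at 223, 217 and 207 CPM in quiescent, 203, 190 and 200 CPM in irradiated, and 174, 174 and 177 CPM in etoposide-treated cells, the lowest state. The etoposide value differed from cycling by -0.24 ± 0.08 (edgeR adjusted p = 0.0339), and the mean of both senescent states from quiescence by -0.21 ± 0.07 (0.0381). Both calls were fragile: the first was lost without cycling replicate 1 (0.0824) or 2 (0.0602) or etoposide replicate 2 (0.0528), and the second without quiescent replicate 1 (0.120) or 2 (0.108), irradiated replicate 1 (0.0602) or 2 (0.0504), or etoposide replicate 2 (0.0503). Its mRNA ranged from 300 to 384 CPM over the 9 arrested libraries, and no mRNA difference was called.

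SAT1 acetylates spermidine and spermine, the first step of their breakdown (chromosome X, 23783173 to 23786210). Its mRNA was at 28.6 and 26.7 CPM in cycling, at 60.6, 44.7 and 63.6 CPM in quiescent, at 110, 119 and 120 CPM in irradiated and at 128, 111 and 129 CPM in etoposide-treated cells. Thapsigargin gave 46.0 and 33.0 CPM. The cycling libraries were the lowest, quiescent and thapsigargin overlapped, and the senescent states overlapped with each other above all the rest. Relative to cycling the rise was 2.03-fold in quiescence (log2 1.02 ± 0.17, edgeR adjusted p = 0.00190), 4.20-fold after irradiation (2.07 ± 0.18, adjusted p = 1.77e-06) and 4.44-fold after etoposide (2.15 ± 0.18, adjusted p = 9.79e-07).

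SAT1 footprints followed the mRNA. They were at 12.2, 17.6 and 14.4 CPM in cycling, at 53.0, 33.6 and 32.6 CPM in quiescent, at 110, 76.3 and 85.2 CPM in irradiated, at 73.4, 66.5 and 89.4 CPM in etoposide and at 25.4 and 25.6 CPM in thapsigargin-treated cells. Every state lay above cycling without overlap. The rise was 2.68-fold in quiescence (log2 1.42 ± 0.21, edgeR adjusted p = 0.000435), 6.14-fold after irradiation (2.62 ± 0.22, 5.88e-07) and 5.16-fold after etoposide (2.37 ± 0.22, 1.07e-06). The irradiated rise sat at the 99.5 percentile of 11762 genes tested.

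The mean of both senescent states exceeded quiescence in SAT1 by 1.08 ± 0.13 on the log2 scale in mRNA (edgeR adjusted p = 4.84e-05) and by 1.07 ± 0.18 in footprints (0.000597). Irradiated and etoposide-treated cells differed by 0.25 ± 0.20 in footprints (0.458). These mRNA and footprint calls against cycling and quiescence held under every alternative run. Under thapsigargin SAT1 footprints rose by 0.79 ± 0.28 (0.0319) on 50 and 52 footprints, and the mRNA difference was 0.51 ± 0.18 (0.0563). That footprint call was lost without cycling replicate 1 (0.0826), without thapsigargin replicate 1 (0.130) or 2 (0.119) and in a fit of these states alone (0.0542). The mRNA was called with DESeq2's size factors (0.0476), with DESeq2's test (0.0290), over all genes of the list (0.0403) and without thapsigargin replicate 2 (0.0165).

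The SAT1 ratio was 0.53 in cycling, 0.74 in quiescent, 0.83 in irradiated, 0.60 in etoposide-treated and 0.65 in thapsigargin-treated cells. The largest difference from cycling, 0.66 ± 0.29 after irradiation, was not called (edgeR adjusted p = 0.646). The promoter is shown because SAT1 is the polyamine gene whose mRNA changed most between states. It is the 250 bases before the annotated start, chrX:23782923-23783172 (GRCh38.p14, RefSeq, plus strand), and capitals mark the CCAAT box on either strand (CCAAT or ATTGG).
SAT1 promoter: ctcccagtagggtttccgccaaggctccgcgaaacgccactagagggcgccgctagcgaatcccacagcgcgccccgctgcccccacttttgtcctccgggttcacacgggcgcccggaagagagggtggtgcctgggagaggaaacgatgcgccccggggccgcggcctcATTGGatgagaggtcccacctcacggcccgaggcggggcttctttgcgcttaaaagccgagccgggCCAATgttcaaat
The window held 2 CCAAT boxes. Searched on both strands, the CCAAT box is present in 32.0% of the 35116 windows. The E-box CACGTG (6.34% of windows), the cAMP response element TGACGTCA (1.65%) and the TATA box TATAAA (10.7%) had no match in it, which says only that these letters are not in this window. The 2 CCAAT boxes do not overlap.

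**Figure D2:**
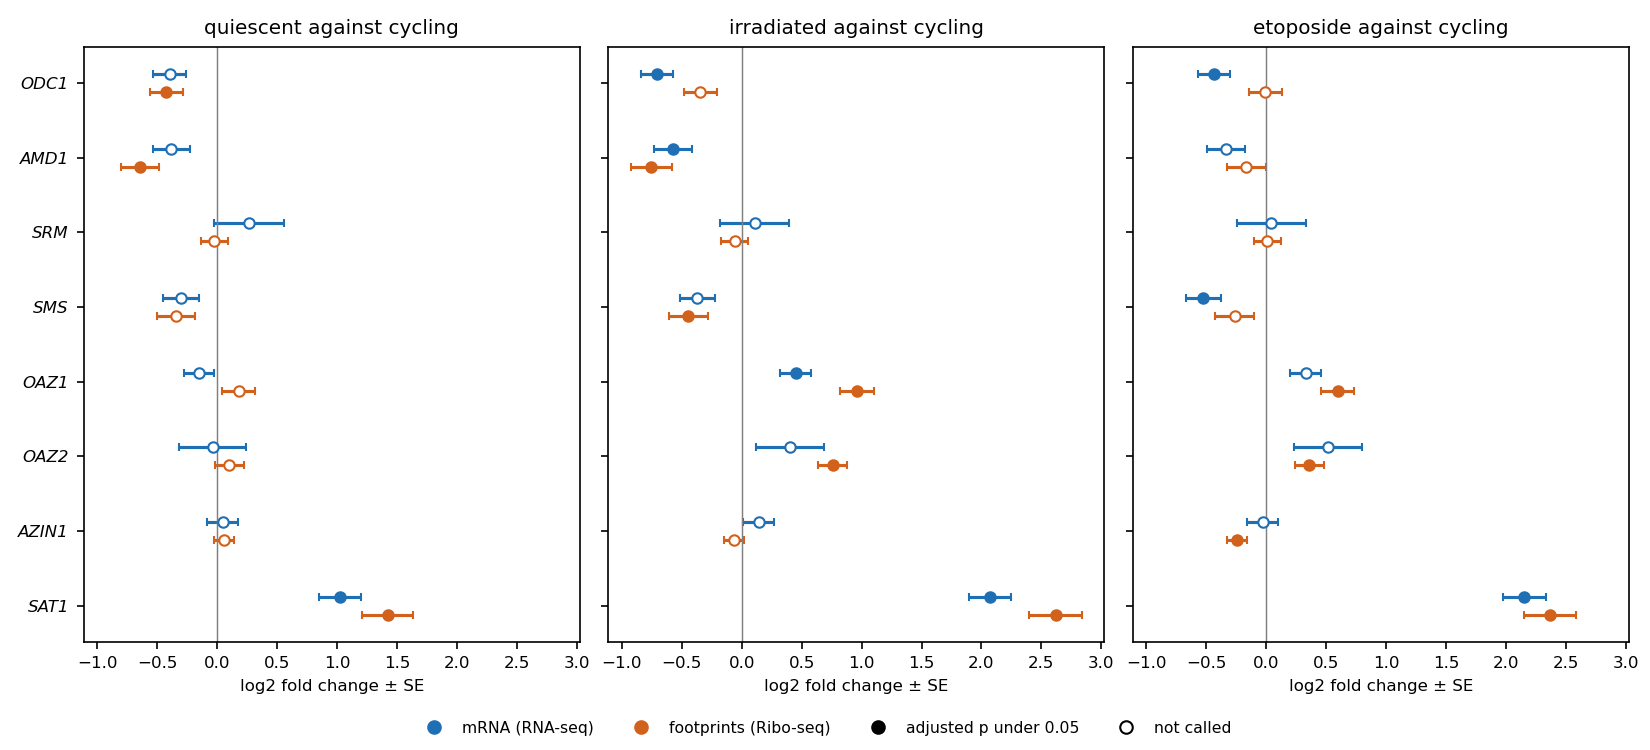
Log2 fold change (± SE) of mRNA and footprints against cycling cells in quiescent, irradiated and etoposide-treated cells, by gene. Filled points have an adjusted p under 0.05 in edgeR and open points do not. SAT1 lies farthest to the right in all 3 panels, from 1.02 to 2.62, and OAZ1 and OAZ2 footprints are to the right after irradiation and etoposide.

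Counted over the 8 genes, mRNA in quiescence was called for 1, higher, where 15.5% of all 13314 genes tested were called (5.18% higher and 10.4% lower). After irradiation 2 were higher and 2 lower (34.9% of all genes, 16.1% higher and 18.7% lower). After etoposide 1 was higher and 2 were lower (34.5%, of which 16.8% higher and 17.7% lower). For the mean of both senescent states against quiescence 2 were higher and 0 lower (34.2%, of which 16.6% higher and 17.6% lower).

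In footprints, quiescence gave 1 higher and 2 lower among the 8 (22.6% of 11762 genes, 7.66% higher and 14.9% lower). Irradiation gave 3 higher and 2 lower (40% of genes, 17.9% higher and 22.1% lower), and etoposide gave 3 higher and 1 lower (33.6%, of which 17.8% higher and 15.8% lower). The mean of both senescent states against quiescence gave 3 higher and 1 lower (26.3%, of which 13.4% higher and 12.9% lower). Between irradiated and etoposide-treated cells, AMD1 was lower and OAZ2 higher (21.2% of genes, 6.51% higher and 14.7% lower). No mRNA was called there by edgeR, where 22.5% of all genes were (9.65% higher and 12.8% lower), with 1 of the 8 at an unadjusted p under 0.05 and 0 called by DESeq2. The median log2 change of the 8 in footprints was -0.063 after irradiation and -0.00086 after etoposide, beside 0.016 and 0.033 over all genes tested.

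Under thapsigargin 6 of the 8 were called in footprints, 3 higher and 3 lower, where 44.3% of all genes were called (18.2% higher and 26% lower). None was called in mRNA, where 24.5% of all genes were (11.7% higher and 12.8% lower). In edgeR 3 of the 8 had an unadjusted p under 0.05, and DESeq2 called 2 (SMS lower, SAT1 higher). The ratio was called for 2, both lower, beside 20.7% of all genes (12.5% lower and 8.14% higher). The median change of the ratio was -0.079 over the 8 genes and -0.14 over all genes.

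**Figure D3:**
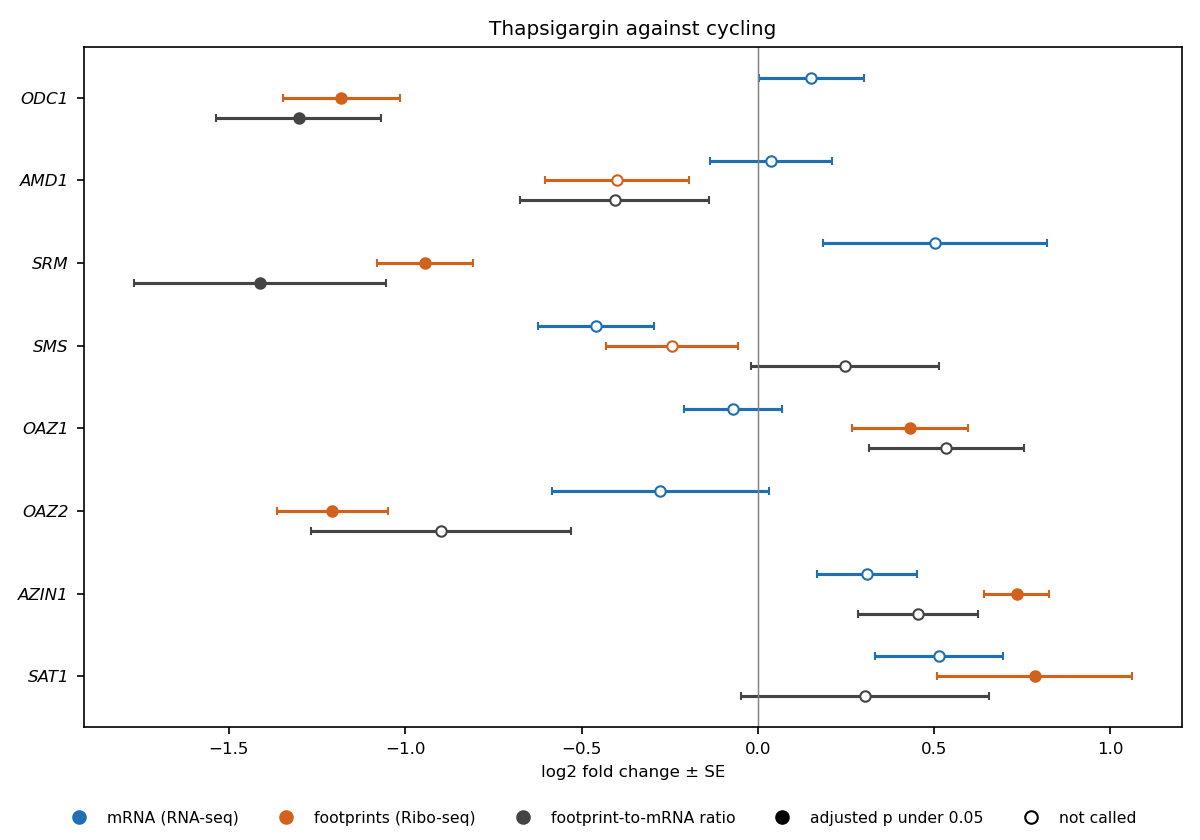
Log2 fold change (± SE) under thapsigargin against cycling cells of mRNA, footprints and the footprint-to-mRNA ratio, by gene. Filled points have an adjusted p under 0.05 in edgeR. Footprints of ODC1, SRM and OAZ2 lie between -0.94 and -1.21 and those of OAZ1, AZIN1 and SAT1 between 0.43 and 0.79, while all mRNA points are open.

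In the other comparisons the ratio was called for none of the 8 by edgeR or DESeq2. At an unadjusted p under 0.05 in edgeR the counts were 1 in quiescence, 3 after irradiation, 0 after etoposide, 2 for both senescent states against quiescence and 2 for irradiated against etoposide-treated cells. Of the 11714 genes, 0.00854% were called in quiescence (all higher), 0.0768% after irradiation (0.0598% higher and 0.0171% lower), 0.0683% after etoposide (0.0341% higher and 0.0341% lower), 0.0512% in the senescent states against quiescence (0.0171% higher and 0.0341% lower) and 0% between the senescent states. The largest of these differences among the 8 were 0.66 for SAT1 after irradiation and 0.66 for OAZ2 between irradiated and etoposide-treated cells (adjusted p = 0.646 and 0.799).

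**Figure D4:**
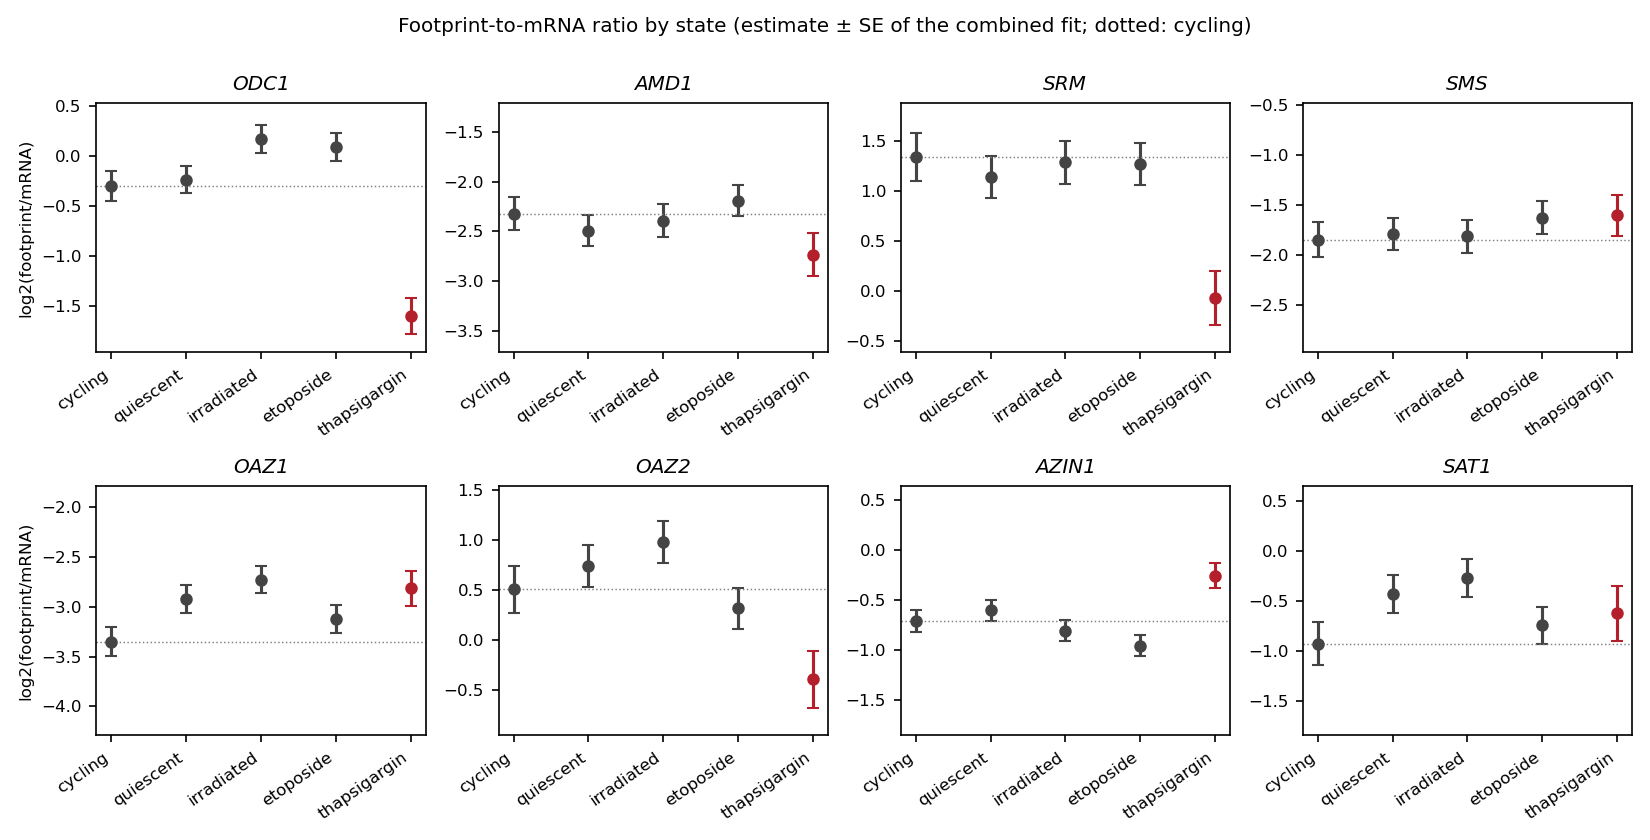
Footprint-to-mRNA ratio of each gene (log2, ± SE of the combined edgeR fit) in the 5 states, each panel spanning the same range of log2 units. The dotted line is the cycling value. Thapsigargin (red) is the lowest state for ODC1, SRM, OAZ2 (-0.39) and AMD1 (-2.73) and the highest for AZIN1 (-0.26) and SMS.

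Across the 14 Ribo-seq libraries, the 3 genes whose log2 CPM most resembled a polyamine gene were listed for 7 of the 8, as a description. The points share library, depth and state. SRM was nearest to RPL26 (Pearson r = 0.976), RPS12 (0.964) and DTD2 (0.961), of which the first 2 are ribosomal proteins. ODC1 was nearest to ST3GAL5 (0.919), SLC1A3 (0.918) and GDPD1 (0.910) and SMS to FARSB (0.840), NOC3L (0.806) and DIMT1 (0.804).

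SAT1 was nearest to RFTN1 (0.975), HIPK3 (0.971) and RRM2B (0.969), the last a p53-induced subunit of ribonucleotide reductase. OAZ1 was nearest to BEX3 (0.956), CDC34 (0.940) and COPS7A (0.938), and OAZ2 to DEPTOR (0.982), MLLT11 (0.981) and PLEKHO2 (0.981). AZIN1 was nearest to NR3C1 (0.988), PRPF19 (0.982) and MED13L (0.974). Among the polyamine genes themselves, ODC1 and AMD1 mRNA had r = 0.924 over 13 RNA-seq libraries. In footprints ODC1 and AZIN1 had r = -0.836 and OAZ2 and AZIN1 -0.883 over 14, values that include the 2 thapsigargin libraries.

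A further 23 genes around the pathway were counted: 2 of the antizyme family, 3 of catabolism, 5 of transport, 8 of precursor supply, 4 that make or carry hypusine, the spermidine-derived residue of EIF5A, and MYC, a transcription factor that induces ODC1. In mRNA 22 were tested (ARG1 was too low), and in footprints and ratio 20 (PAOX and DHPS too). Under thapsigargin 5 rose and 3 fell in mRNA, 6 rose and 6 fell in footprints, and in the ratio 1 rose and 4 fell, beside 24.5%, 44.3% and 20.7% of all genes called. The median ratio change was -0.21 beside -0.14 over all genes tested.

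The 5 pathway genes with a called ratio under thapsigargin were AZIN2, ATP13A3, AHCY, EIF5A2 and AGMAT. AZIN2, the second antizyme inhibitor, had 4.48 ± 0.36 CPM of footprints in cycling cells (SD, n = 3) and 21.4 and 6.90 CPM under thapsigargin, and its ratio rose by 1.96 ± 0.45 on the log2 scale (edgeR adjusted p = 0.00399). Without thapsigargin Ribo-seq replicate 1 that rise was 0.86 (0.227), and in a fit of these states alone it was 1.92 (0.0978). ATP13A3, a polyamine transporter, rose in mRNA from 289 ± 18.6 CPM (SD, n = 2) to 790 and 966 CPM (log2 1.61 ± 0.22, 0.000228), and its ratio changed by -1.01 ± 0.35 (0.0415). Its footprints were also higher, at 158 and 170 CPM against 111 ± 4.81 CPM in cycling cells (SD, n = 3), without overlap.

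AHCY, which hydrolyses adenosylhomocysteine, and EIF5A2, an isoform of the hypusinated factor, changed in ratio by -0.66 ± 0.23 (edgeR adjusted p = 0.0424) and -1.30 ± 0.41 (0.0252). EIF5A2 footprints were low, at 14.2 ± 0.43 CPM in cycling cells (SD, n = 3) and from 6.10 to 6.90 CPM under thapsigargin. AGMAT, a mitochondrial hydrolase, had 34, 48 and 32 footprints in the cycling libraries and 0 in both thapsigargin libraries. Against a floor of 3 counts over the group, its footprint level was at least 4.47-fold lower. The cycling and thapsigargin Ribo-seq counts come from different gene lists, and whether the boundaries of AGMAT differ between them was not checked. The ratio calls of ATP13A3 and AHCY were lost with DESeq2's size factors (0.0638 and 0.0683), and those of AHCY and EIF5A2 in a fit of these states alone (0.159 and 0.0568). All 3 were lost without several single libraries: adjusted p reached 0.111 for ATP13A3 without cycling RNA-seq replicate 2, 0.202 for AHCY without thapsigargin Ribo-seq replicate 1 and 0.0780 for EIF5A2 without the same library.

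In the other comparisons none of the 20 pathway genes was called in the ratio by edgeR or DESeq2. At an unadjusted p under 0.05 in edgeR there was 1 in quiescence, 2 after irradiation, 0 after etoposide, 2 in the senescent states against quiescence and 3 between the senescent states. In quiescence 0 rose and 1 fell in mRNA, and 1 rose and 4 fell in footprints (15.5% and 22.6% of all genes were called), with the largest changes in SLC7A1, which imports arginine (-1.30 ± 0.30, adjusted p = 0.00698), and ATP13A3 (-1.14 ± 0.23, 0.00238). Both footprint calls were lost in a fit of these states alone (0.0730 and 0.0532). After irradiation 3 rose and 5 fell in mRNA and 4 rose and 6 fell in footprints (34.9% and 40% of all genes), led by SLC7A1 (-2.85 ± 0.35, 2.51e-05) and SLC3A2, a subunit of amino acid transporters (-1.55 ± 0.27, 0.000464).

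After etoposide 6 rose and 4 fell in mRNA and 7 rose and 5 fell in footprints (34.5% and 33.6% of all genes), led by SLC18B1, a vesicular polyamine transporter (1.94 ± 0.30, edgeR adjusted p = 0.000187), and SLC7A1 (-1.57 ± 0.31, 0.00144). Irradiated cells were lower than etoposide-treated ones in footprints of SLC18B1 by -2.65 ± 0.35 (0.000210) and of ATP13A3 by -2.15 ± 0.24 (0.000112). ATP13A3 footprints stood at 48.2 ± 4.37 CPM after irradiation and at 213 ± 32.9 CPM after etoposide (SD, n = 3 each), on either side of 111 ± 4.81 CPM in cycling cells. Of the 20 pathway genes, 1 was higher and 4 were lower in this comparison in footprints (21.2% of all genes). The mean of both senescent states against quiescence gave 6 higher and 3 lower in mRNA (34.2% of all genes). In footprints it gave 4 higher and 3 lower (26.3%), led by SLC18B1 (1.49 ± 0.29, 0.00182) and ATP13A3 (1.00 ± 0.20, 0.00245). SLC18B1 footprints were at 5.91 CPM after irradiation, 37.5 CPM after etoposide and 5.34 CPM in quiescence. ATP13A3 footprints were at 50.5 CPM in quiescence. For both genes the irradiated libraries overlapped the quiescent ones, and the etoposide libraries lay above them.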

How the data were processed

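Per the submitters' processing notes the tools were bcl2fastq, STAR 2.7.10b and DESeq2 1.36.0 with build hg38; their settings and the annotation are not given in the sources used here. The authors deposited raw counts of reads per gene in 3 strand columns per library. The column of the strand that held most reads was taken, reverse for RNA-seq and forward for Ribo-seq, which left 3.56% to 10.7% on the opposite strand. Reads mapping to several places (9.43% to 66.9% of a library's reads) are in no gene's count, so genes with pseudogene copies, among them OAZ1, AMD1, SRM and SMS, are uncertain. Counts per gene include footprints in untranslated regions.

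Gene lists differed: 62703 IDs in 15 libraries (RNA-seq of every state and Ribo-seq of thapsigargin) and 60664 in the other 12. Of the 60534 shared IDs, protein-coding ones were tested. Every Ribo-seq comparison with thapsigargin crosses these lists, and so does every change of the ratio under thapsigargin. The ratio within each other state also crosses them, but in the same way in each. Changes of the ratio between those states therefore carry the same crossing on both sides. A gene's boundaries may differ between the lists. Symbols came from the gene name table (60461 matched), and 19313 IDs are protein coding in RefSeq GRCh38.p14 by symbol or synonym.

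Counts were tested in R 4.3.3 with edgeR 4.0.16 (quasi-likelihood, robust, TMM, filterByExpr, all 5 states in each fit) in 13314 genes for RNA-seq, 11762 for Ribo-seq and 11714 for the ratio; the ratio is the Ribo-seq difference less the RNA-seq difference in one fit of 27 libraries. Tests were two-sided, with Benjamini-Hochberg adjustment over all genes tested. Replicate numbers were checked by the correlation of deviations from group means. All 3 same-number pairs were over 0.1 for cycling and quiescent Ribo-seq (0.155 to 0.254), and all 5 RNA-seq and Ribo-seq pairs of the cycling and etoposide states were (0.132 to 0.370); other groups compared with 3 or more pairs did not meet this. Contrasts against cycling share the cycling libraries. DESeq2 1.42.0, DESeq2 size factors, no filter, only the groups compared, unstranded counts, all genes of the list, replicate blocks and leaving out each library were alternatives. The test was checked on simulated counts in which a small set of genes changed, in thapsigargin Ribo-seq only. That check does not show how the test behaves where many genes change, as in these data. Log2 CPM for correlations used a prior count of 2. The 8 genes, and the pathway, marker and motif lists, were chosen with earlier results of these data known. Pathway genes were named where their ratio was called, and otherwise the 2 with the largest change among those called in a comparison. Levels were not compared between genes, since no lengths were used. An AZIN1 promoter was not analysed here. The genes nearest to AMD1 in footprints are not reported here.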

Additional observations from a re-analysis of the deposited data

Results flagged for a closer look

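Footprints of OAZ2 and AMD1 differed between the senescent states in a direct test of irradiated against etoposide-treated cells. The log2 difference was 0.402 for OAZ2 (edgeR adjusted p = 0.0296), with all 3 irradiated libraries above all 3 etoposide libraries. For AMD1 it was -0.588 (adjusted p = 0.0264), with all 3 irradiated libraries below. Each call was lost without single libraries, as given with the genes' values. Neither gene's mRNA was called in that comparison (adjusted p = 0.791 and 0.257).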

How the results depend on the processing

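Counts of polyamine genes called moved as follows. In RNA-seq, DESeq2's test gave 2 in place of 1 in quiescence and 2 in place of 0 under thapsigargin; DESeq2 size factors and all genes of the list gave 1 under thapsigargin; and fitting only the groups compared gave 5 in place of 3 after etoposide and 1 in place of 0 for irradiated against etoposide-treated cells. In Ribo-seq, DESeq2's test and the fit of those groups alone each gave 4 in place of 2 for irradiated against etoposide-treated cells. In the ratio under thapsigargin, 2 genes were called, and 4 by DESeq2's test and 1 with only the groups compared. Leaving out each library in turn gave from 2 to 4 genes in RNA-seq after irradiation, 1 to 3 after etoposide and 0 to 2 under thapsigargin. It gave 1 to 4 in Ribo-seq in quiescence, 2 to 4 after etoposide and 0 to 2 between the senescent states, and 1 to 4 in the ratio under thapsigargin. Where this leaves 1 library in a group, that library is assumed to vary like the other groups.

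Replicate numbers are shared by several groups. They met the check of pairing for cycling against quiescent Ribo-seq and for the ratio of etoposide against cycling, where the block changed no call among the polyamine genes. They did not meet it for the other comparisons with 3 or more pairs, where they are only shared numbers. With 2 pairs the check cannot decide. Cycling against thapsigargin RNA-seq had r = 0.297 in both pairs, which mirror each other because each group has 2 libraries. RNA-seq and Ribo-seq libraries with the same state and number had correlations of deviations from -0.0191 to 0.577, with 6 of 13 over 0.1, as were 10 of 23 pairs across states in RNA-seq and 6 of 26 in Ribo-seq, and 8 of 13 RNA-seq libraries correlated best with their own number. With a replicate block by number, 1 polyamine gene was called in RNA-seq under thapsigargin in place of 0, SAT1 (log2 0.50), and SAT1 footprints under thapsigargin lost their call (edgeR adjusted p = 0.0506). ODC1 footprints were called lower after irradiation (-0.35, 0.0185) and against etoposide-treated cells (-0.34, 0.0399). With a replicate block by lysate, 4 were called in the ratio under thapsigargin in place of 2, with OAZ1 (0.67, 0.0360) and OAZ2 (-0.87, 0.0263) added, and the EIF5A2 ratio lost its call (0.0542).

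Signs reversed in mRNA under thapsigargin among uncalled differences. Leaving out each library gave ODC1 from -0.0065 (without cycling replicate 2) to 0.33, AMD1 from -0.22 (without thapsigargin replicate 1; -0.081 without cycling replicate 2) to 0.26, OAZ2 from -0.91 to 0.16 (without thapsigargin replicate 1), OAZ1 from -0.16 to 0.012 and SRM from -0.24 to 0.99 (the reversals of the last 2 without thapsigargin replicate 2). A further 55 uncalled differences under 0.2 in size are not printed as results, and 28 of them reversed and 2 were called under some alternative.

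The number of all genes called moved most in the ratio: from 9 to between 1 and 783 after irradiation and from 0 to 705 between the senescent states (6 by DESeq2; 676 at an unadjusted p under 0.05 in edgeR) when fitted with only the groups compared, and from 2422 to between 1057 and 3717 under thapsigargin. It ran from 0 to 6 in quiescence against 1, from 5 to 40 after etoposide against 8, and from 4 to 38 for the senescent states against quiescence against 6. In RNA-seq without cycling replicate 1 the counts were 706 against 2069 in quiescence, 2777 against 4644 after irradiation and 2606 against 4596 after etoposide. They were 1512 against 3262 under thapsigargin with only the groups compared and 1840 against 2995 between the senescent states without etoposide replicate 2. In Ribo-seq they were 1559 against 2659 in quiescence without cycling replicate 3, 6022 against 3952 after etoposide with only the groups compared, and, between the senescent states, 1586 without irradiated replicate 1 and 4134 with only the groups compared against 2490. Thapsigargin Ribo-seq depth limits OAZ2, AMD1 and SAT1 there to under 100 footprints per library. The pathway genes AZIN2 (6.90 to 21.4 CPM) and EIF5A2 (6.10 to 6.90 CPM) had fewer still.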
